A study of Homo sapiens with 6 samples.

Results

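Mitochondrial ribosomal proteins were examined in human forebrain organoids given the amyloid peptide Aβ42 or vehicle. The members were every gene whose symbol is MRPL or MRPS followed by a digit, which gave 78 of the 18056 genes in the deposited table, 49 with MRPL symbols and 29 with MRPS symbols. By function, 51 encode proteins of the large subunit and 26 of the small subunit, since MRPS30 and MRPS18A sit in the large subunit despite their names. The remaining gene, MRPS36, carries the RefSeq symbol KGD4, and its protein is a component of the 2-oxoglutarate dehydrogenase complex rather than of the ribosome. All 78 passed the filter on low counts and were among the 13842 genes tested.

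The organoids were grown from DYR0100, an established human induced pluripotent stem cell line labelled wild type, by a dorsal forebrain protocol, and their age at treatment was not given. One group of 3 libraries received vehicle and the other group of 3 received 5 µM Aβ42 for 6 days, with replicates described as independent and all libraries labelled as the same batch. Every library came from the same line, so differences between people are not covered. RNA was measured by poly(A)-selected bulk sequencing, which reads transcripts and not proteins.

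The mitochondrial ribosome translates the few messenger RNAs encoded by mitochondrial DNA, all of which specify subunits of the respiratory chain and ATP synthase. Its proteins are encoded in the nucleus, made on cytosolic ribosomes and imported, while its ribosomal RNAs come from mitochondrial DNA. Some of its proteins descend from bacterial ribosomal proteins, and others are found only in mitochondria. Neurons and their progenitors depend on respiratory chain activity, and inherited defects of several of these genes cause encephalopathy, cardiomyopathy or hearing loss.

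The deposited totals lay between 16465390 and 16742958 estimated counts per library, and members had between 61 and 1916 counts in any library. The median member had a mean of 308.6 counts, against 506.25 for the median tested gene. Markers of radial glia and neurons were present (summed 7905 and 4762 TPM in vehicle), while none of 7 microglial markers passed the filter and 5 of them were at 0 in all libraries. The sum of the choroid plexus markers was nearly all TTR (7487 of 7555 TPM in vehicle library 2). It varied widely within both groups, from 3338 to 7555 TPM with vehicle and from 2835 to 6650 TPM with Aβ42, and was highest in the libraries numbered 2. Among vehicle libraries only AQP1 was not highest in number 2 (17.4 TPM, against 21.6 TPM in number 1).

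Most members were expressed near the middle of a broad range. Across the 6 libraries their mean level ran from 9.43 TPM for MRPL22 to 147.9 TPM for MRPL33, a ratio of 15.7, with a median of 49.3 TPM and an interquartile range of 33.1 to 66.4 TPM. Of the 78 members, 60 lay within 2-fold of that median on either side. The median tested gene stood at 25.5 TPM, and 67 members exceeded it. TPM is scaled for transcript length, so a comparison of these levels between genes rests on the length used. MRPL33 had a mean of 131.3 counts, whereas MRPL42 had a mean of 1673.8 counts but only 15.8 TPM.

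MRPL33, a small bacterial-type protein of the large subunit, had 152.7, 131.9 and 158.8 TPM in the vehicle libraries and 132.6, 153.9 and 157.6 TPM in the Aβ42 libraries. MRPS21, which belongs to the bacterial S21 family, had 143.0, 139.4 and 144.3 TPM with vehicle and 149.2, 150.6 and 157.2 TPM with Aβ42. MRPL53, a mitochondrion-specific protein at the base of the stalk that recruits translation factors, averaged 123.9 ± 6.24 TPM (SD, n = 3) with vehicle and 119.3 ± 8.59 TPM (SD, n = 3) with Aβ42. The ranges of MRPL33 and MRPS21 overlapped, so their order was not resolved.

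At the other end, MRPL22, a bacterial-type protein near the exit of the peptide tunnel, averaged 9.31 ± 0.668 TPM (SD, n = 3) with vehicle and 9.55 ± 0.845 TPM (SD, n = 3) with Aβ42. MRPS33 and MRPS23, both specific to the mitochondrial small subunit, had 14.7 and 15.7 TPM over all libraries. Every library of MRPL22 was below every library of MRPS33. Both ends of this order are proteins of the same large subunit.

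**Figure D1:**
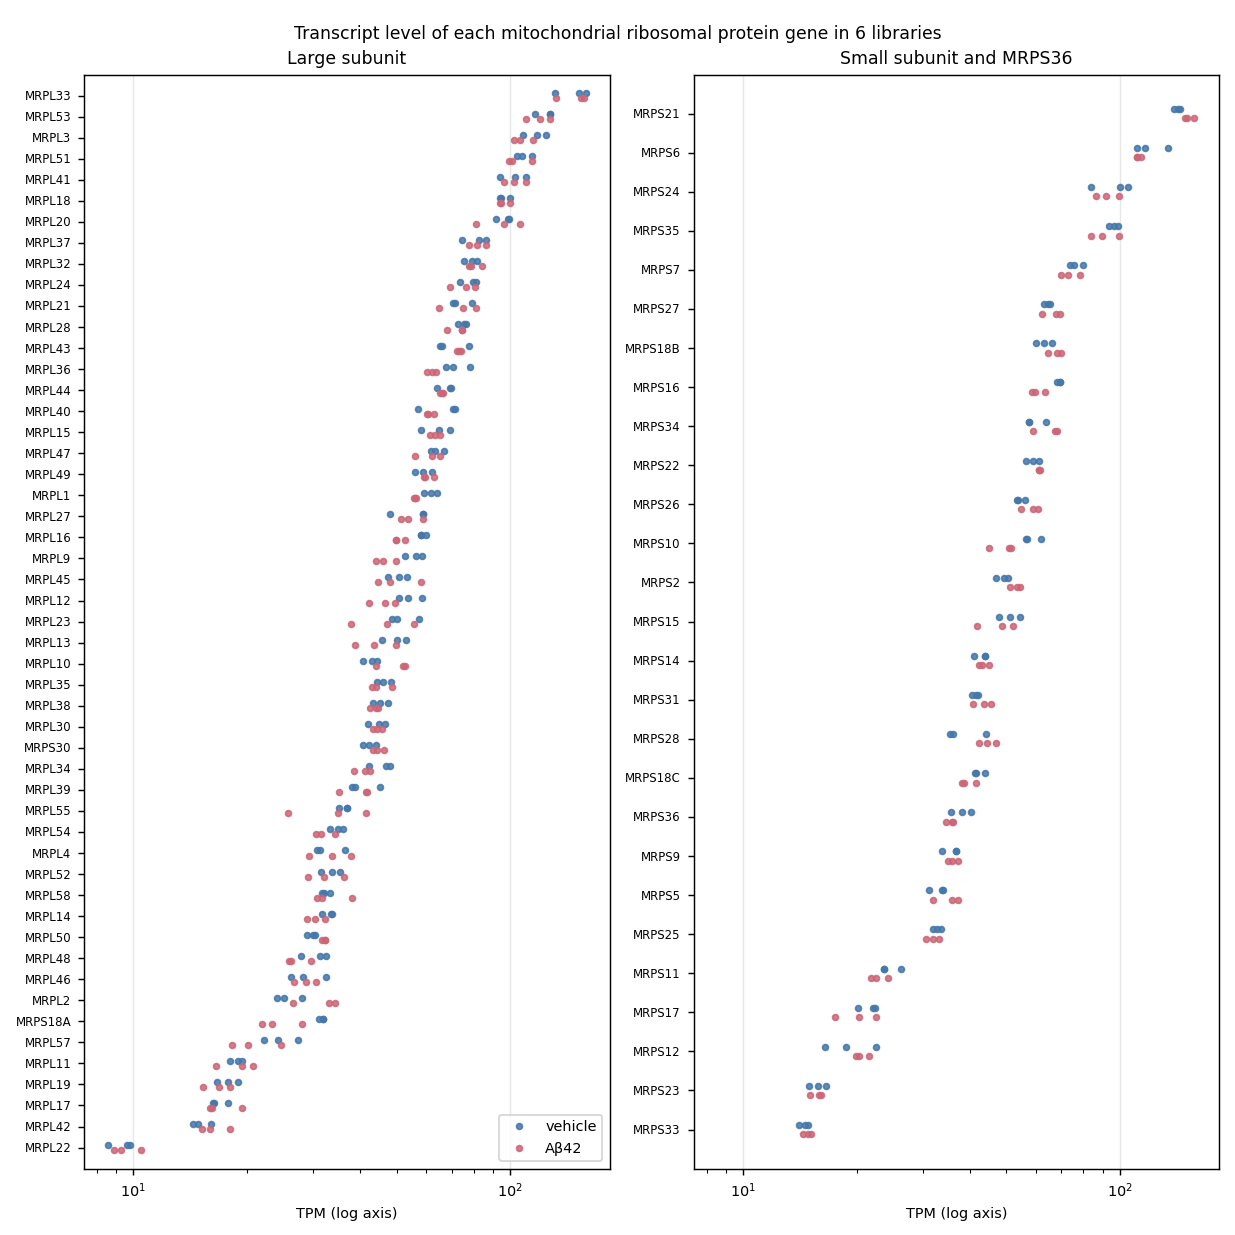
Level of each member in TPM (log axis) in the 3 vehicle and 3 Aβ42 libraries, 1 point per library, with large-subunit members on the left and small-subunit members with MRPS36 on the right, ordered by mean. Most members lie between 33.1 and 66.4 TPM or close to it, and the points of both groups are intermixed for most genes.

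Summed over the 78 members, the level was 4300, 4327 and 4266 TPM in the vehicle libraries and 4041, 4333 and 4223 TPM in the Aβ42 libraries. The groups overlapped, with means of 4297 ± 30.5 TPM and 4199 ± 148 TPM (SD, n = 3 each), a difference of -2.30%. Large-subunit members summed to 2839 ± 16.5 TPM with vehicle and 2747 ± 125 TPM with Aβ42 (SD, n = 3 each), and small-subunit members to 1421 ± 12.8 TPM and 1417 ± 24.8 TPM.

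TPM values are shares of a fixed total, and the 77 cytosolic ribosomal protein genes took more of it with Aβ42: 171514, 153691 and 162467 TPM in the vehicle libraries and 188712, 175793 and 191592 TPM in the Aβ42 libraries. With the TPM outside those genes rescaled to a total of 1000000, a denominator chosen after the data were seen, the members held 5190, 5112 and 5093 with vehicle and 4981, 5257 and 5224 with Aβ42. On that scale the means were 5132 ± 51.3 and 5154 ± 151 (SD, n = 3 each), so the sign of the difference turned and its size stayed below the spread between libraries.

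**Figure D2:**
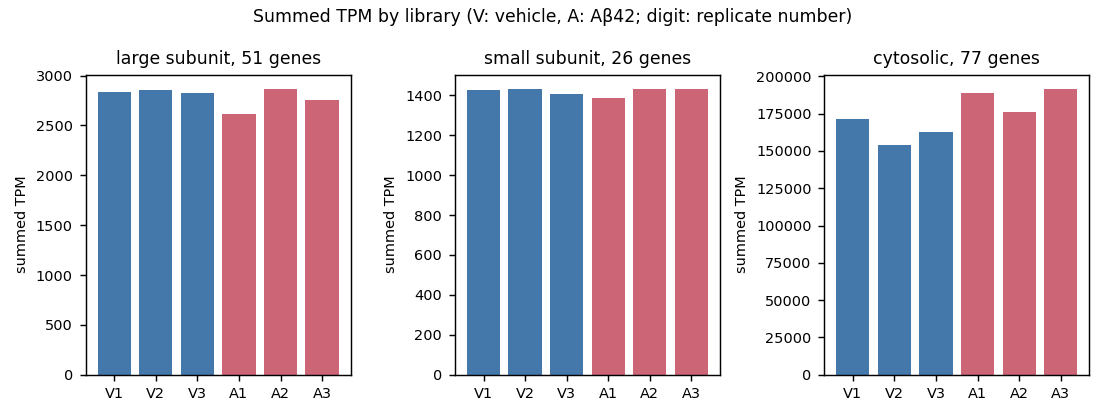
Summed TPM in each library (bars; V for vehicle, A for Aβ42, with the replicate number) for the 51 large-subunit members, the 26 small-subunit members and the 77 cytosolic ribosomal protein genes. The mitochondrial sums overlap between groups, whereas all 3 Aβ42 libraries exceed all 3 vehicle libraries for the cytosolic genes.

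The comparison of Aβ42 with vehicle addressed which transcripts change in organoids exposed to the peptide. With edgeR's quasi-likelihood test, no member passed an adjusted p of 0.05, and neither did any of the 13842 genes, a background of 0%. The smallest Benjamini-Hochberg adjusted p was 0.119 among members and 0.0684 among all genes in that edgeR fit. DESeq2, which called 805 of 17370 genes, and limma-voom, which called none, likewise called 0 members. At an unadjusted p under 0.05, edgeR gave 10 of 78 members, 6 higher and 4 lower, which is 12.8% against a background of 23.9% of all tested genes (12.4% higher and 11.5% lower). The share of members that met this unadjusted threshold was below the background in both directions.

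Fold changes were small as well as unresolved. Log2 fold changes of normalised counts (Aβ42 over vehicle) ran from -0.31 for MRPS18A to 0.34 for MRPL2, with a median absolute value of 0.071 against 0.116 for all tested genes. The median standard error of a member was 0.083. For 76 of 78 members (97.4%) the 95% interval of the fold change lay within 1.5-fold either way, against a background of 78.1%; the bound was chosen after the values were seen. The 2 exceptions were MRPL2, with an interval of 0.05 to 0.63 on the log2 scale, and MRPL57, with -0.63 to 0.03. For the other members, a change larger than 1.5-fold lay outside the interval that 3 libraries a group gave.

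**Figure D3:**
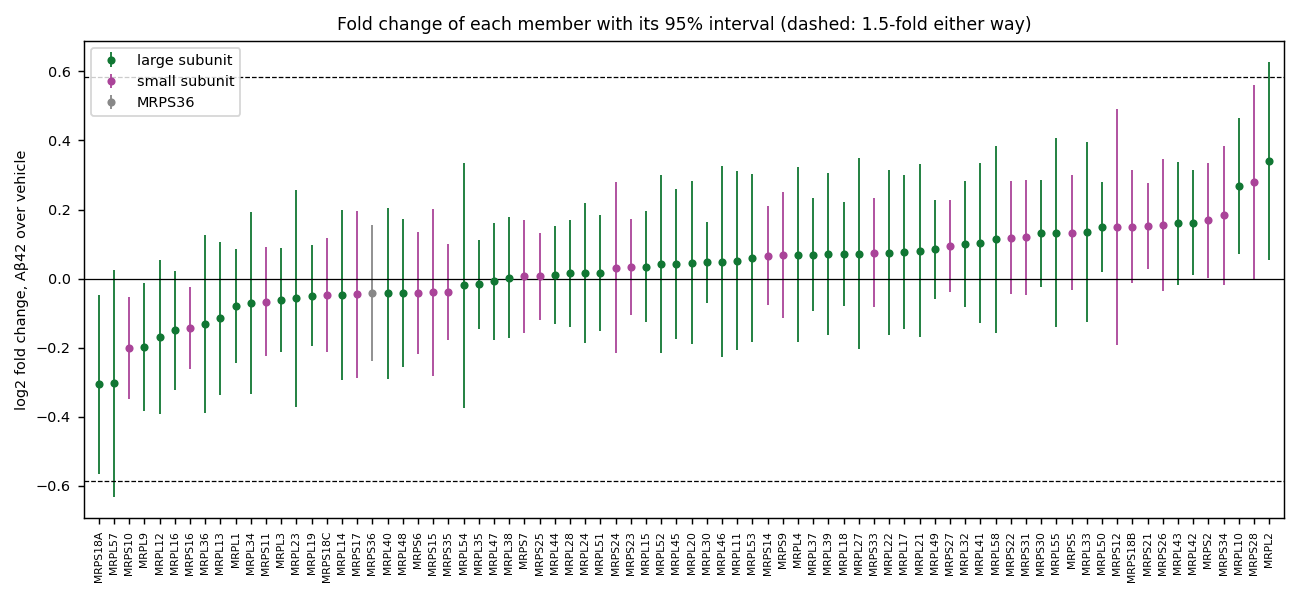
Log2 fold change of each member (Aβ42 over vehicle, points) with its 95% interval (bars) from the edgeR fit, ordered by value and coloured by subunit, with dashed lines at 1.5-fold either way. Only the intervals of MRPL2 and MRPL57 cross a dashed line.

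More members stood above 0 than below it on this scale, 51 against 27, and the median was 0.044 for members and 0.003 for all tested genes. The members' median was 0.015 without Aβ42 library 2 and 0.028 without Aβ42 library 3. That excess differed by scale, and the part of transcript length in it was not tested. Length was taken as the ratio of deposited count to TPM. By that measure members are short, with a median at percentile 8.13 of the tested genes. After a correction for it 37 members stood above 0 and the median was -0.003, while that of the small subunit was 0.048. On the log2(TPM + 1) scale 31 stood above 0, with a median of -0.035 against -0.040 for all tested genes.

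The split of members at an unadjusted p under 0.05 moved with the scaling too. The length correction gave 4 higher and 6 lower (backgrounds 12.2% and 11.4%), limma on log2(TPM + 1) gave 3 higher and 9 lower (7.7% and 16.1%), and upper-quartile scaling gave 8 higher and 3 lower (14.5% and 9.51%). The libraries of the groups did not overlap for 9 higher members (background 13.6%) and 6 lower members (background 13.4%). The 9 were MRPL33, MRPS30, MRPL50, MRPL43, MRPL10, MRPS31, MRPS2, MRPS21 and MRPS22, and the 6 were MRPL16, MRPS18A, MRPL36, MRPL9, MRPS16 and MRPS10. Both shares, 11.5% and 7.69% of members, were below those backgrounds.

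Libraries with the same replicate number deviated together, most clearly number 2 (correlation 0.388). The correlation for number 3 (0.129) was below that of vehicle library 3 with Aβ42 library 1 (0.177). The pairing was read from these data and not from the labels, so blocked values, here and below, are an alternative only. An edgeR fit with the number as a block called 1 member higher, MRPL10 (background 7.12%), and 1 lower, MRPL57 (background 7.05%), at an adjusted p of 0.05. Without Aβ42 library 2, which lay closest to vehicle for several of the genes below, 4 members were called higher (MRPL10, MRPL2, MRPL42 and MRPS5, background 11.5%) and 4 lower (MRPL57, MRPS18A, MRPS10 and MRPS16, background 11.6%). Leaving out a library near vehicle widens such differences by construction, so values from this fit, here and below, are not separate support. Leaving out any other single library called 0 members and 0 of all tested genes. In the blocked fit and in the fit without Aβ42 library 2, the share of members called was below the background in both directions.

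Among the large-subunit members that were higher, MRPL10 had the smallest p. It encodes the protein that anchors the flexible stalk, to which copies of MRPL12 attach and which contacts translation factors. Its normalised level was 26.5, 25.2 and 24.0 CPM (counts scaled to a library total of 1000000) with vehicle and 31.6, 26.7 and 32.9 CPM with Aβ42. The groups did not overlap, although Aβ42 library 2 lay next to the vehicle libraries. The log2 fold change was 0.27 ± 0.09 (SE; edgeR, adjusted p = 0.119), and 0.26 with the replicate block (adjusted p = 0.0379).

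MRPL2, a bacterial-type protein beside the catalytic centre of the large subunit, had the highest fold change of any member. It measured 9.31, 10.1 and 8.66 CPM with vehicle and 12.5, 9.86 and 13.2 CPM with Aβ42. Aβ42 library 2 lay within the vehicle range, and the log2 fold change of 0.34 ± 0.13 (SE; edgeR adjusted p = 0.153) became 0.46 without it (adjusted p = 0.0121). The gene lies at chr6:43054029-43059863 (GRCh38.p14) and its span overlaps that of KLC4, so its counts may include reads from that neighbour where strand was not used in counting.

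MRPL50 and MRPL42 are mitochondrion-specific proteins of the large subunit. MRPL50 measured 37.8, 35.6 and 37.8 CPM with vehicle and 41.1, 41.0 and 41.3 CPM with Aβ42, without overlap, a log2 fold change of 0.15 ± 0.06 (SE; edgeR adjusted p = 0.163). MRPL42 measured 92.2, 92.6 and 101 CPM with vehicle and 117, 97.5 and 106 CPM with Aβ42, and its groups overlapped. Its log2 fold change was 0.16 ± 0.07 (SE; edgeR adjusted p = 0.187), rising to 0.22 without Aβ42 library 2 (adjusted p = 0.0181).

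The small-subunit members with the smallest p among those higher were MRPS21 and MRPS2, both of bacterial type. MRPS21 measured 62.5, 59.3 and 61.7 CPM with vehicle and 65.6, 66.5 and 71.7 CPM with Aβ42, so the groups were separate. Its log2 fold change was 0.15 ± 0.06 (SE; edgeR adjusted p = 0.147). RefSeq lists 9 pseudogenes of MRPS21, the most of any member, and reads from such copies can be credited to the parent gene. MRPS2 measured 24.2, 21.6 and 23.2 CPM with vehicle and 24.7, 26.4 and 26.6 CPM with Aβ42, a log2 fold change of 0.17 ± 0.08 (SE; edgeR adjusted p = 0.205). Its lowest Aβ42 library was barely above its highest vehicle library.

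Of the lower members, MRPS10 and MRPS16 belong to the small subunit and are of bacterial type; mutations of MRPS16 cause a fatal neonatal respiratory chain deficiency. MRPS10 measured 42, 44.6 and 41.3 CPM with vehicle and 38.3, 38.4 and 34.5 CPM with Aβ42, and MRPS16 measured 65.4, 63.7 and 63.2 CPM with vehicle and 55.8, 60.2 and 58.1 CPM with Aβ42. Neither gene's groups overlapped. The log2 fold change was -0.20 ± 0.07 for MRPS10 (SE; edgeR adjusted p = 0.119) and -0.14 ± 0.05 for MRPS16 (SE; edgeR adjusted p = 0.149). Without Aβ42 library 2 the adjusted p was 0.036 for MRPS10 and 0.0429 for MRPS16.

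The bacterial S18 protein has 3 counterparts in human mitochondria, which have taken different places in the ribosome. MRPS18A, in the large subunit, measured 10.9, 10.7 and 10.4 CPM with vehicle and 7.74, 9.80 and 8.34 CPM with Aβ42, separate groups with a log2 fold change of -0.31 ± 0.12 (SE; edgeR adjusted p = 0.155), the lowest of any member. MRPS18B, in the small subunit, measured 30.2, 26.6 and 27.9 CPM with vehicle and 32.2, 29.6 and 32.1 CPM with Aβ42. Its groups overlapped, and its log2 fold change was 0.15 ± 0.07 (SE; edgeR adjusted p = 0.243). MRPS18C, which holds the position of the bacterial protein, had a log2 fold change of -0.05 (edgeR adjusted p = 0.725). The difference between the 3 was not tested.

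MRPL9 and MRPL16, bacterial-type proteins of the large subunit, were both lower in every Aβ42 library than in any vehicle library. MRPL9 measured 20.9, 21.0 and 18.9 CPM with vehicle and 17.3, 18.6 and 17.1 CPM with Aβ42 (log2 fold change -0.20 ± 0.08, SE; edgeR adjusted p = 0.186). MRPL16 measured 18.3, 18.4 and 17.9 CPM with vehicle and 16.1, 16.7 and 16.3 CPM with Aβ42 (log2 fold change -0.15 ± 0.08, SE; edgeR adjusted p = 0.266). MRPL16 also had the smallest spread of any member, with a within-group SD of 0.026 on the log2 CPM scale against a median member's 0.086.

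MRPL57, a mitochondrion-specific large-subunit protein, had the widest spread, with a within-group SD of 0.237. It measured 16.6, 19.9 and 17.9 CPM with vehicle and 12.7, 18.6 and 12.8 CPM with Aβ42. Libraries 1 and 3 of the Aβ42 group lay below all vehicle libraries, and library 2 lay among them. The log2 fold change was -0.30 ± 0.15 (SE; edgeR adjusted p = 0.242), -0.31 with the replicate block (adjusted p = 0.0417) and -0.51 without Aβ42 library 2 (adjusted p = 0.00468). RefSeq lists 8 pseudogenes of this gene.

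**Figure D4:**
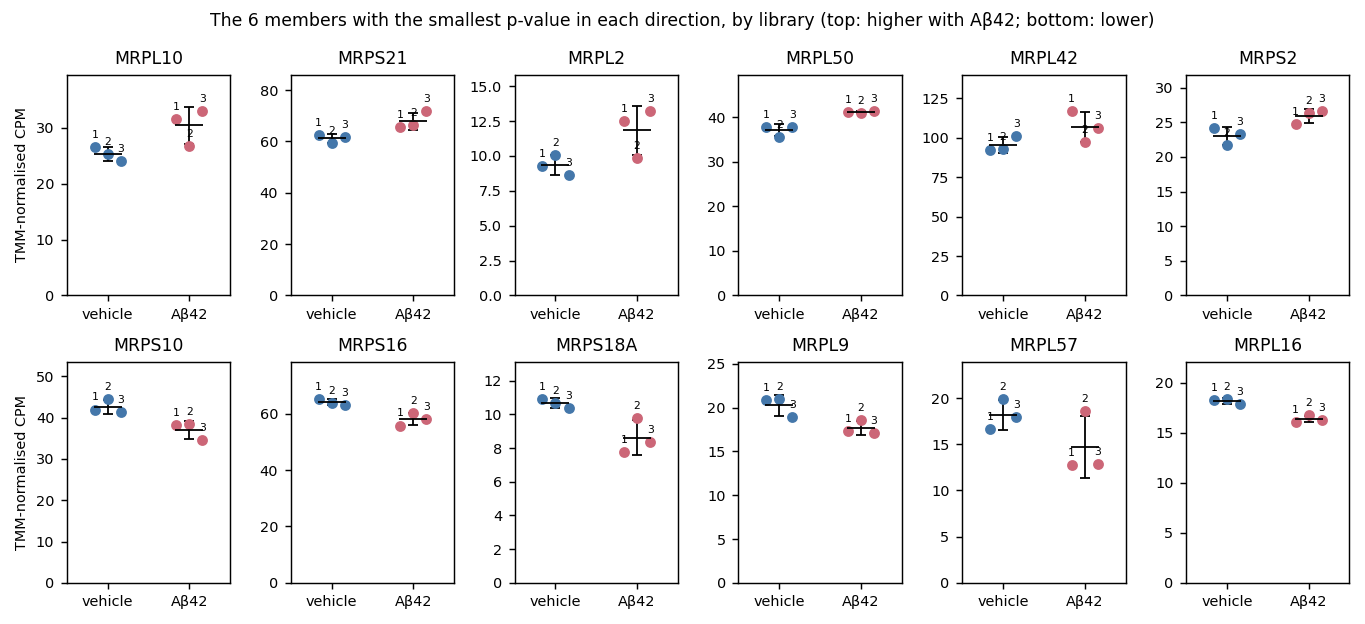
TMM-normalised CPM of the 6 higher (top row) and 6 lower (bottom row) members with the smallest p-values, 1 point per library with its replicate number, and the group mean with SD as bars (n = 3). Of the Aβ42 libraries, number 2 lies nearest to vehicle for MRPL10, MRPL2, MRPL42, MRPS16, MRPS18A, MRPL9, MRPL16 and MRPL57, and by a slight margin for MRPL50 and MRPS10. For MRPS21 and MRPS2 it is number 1.

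Several members were described for further known roles, whatever their result. MRPL12, the stalk protein that also binds the mitochondrial RNA polymerase, measured 15.2, 16.2 and 14.1 CPM with vehicle and 12.3, 13.4 and 14.7 CPM with Aβ42, overlapping groups with a log2 fold change of -0.17 ± 0.10 (SE; edgeR adjusted p = 0.329). It was -0.22 with the length correction (edgeR, unadjusted p = 0.0401, adjusted p = 0.193) and -0.23 with limma on the log2(TPM + 1) scale (unadjusted p = 0.0123, adjusted p = 0.129). MRPL44, which resembles ribonuclease III, had a log2 fold change of 0.01 with a 95% interval of -0.13 to 0.15. MRPL58, a peptidyl-tRNA hydrolase that was recruited into the large subunit, stood at 0.11 with an interval of -0.16 to 0.38, and MRPL41 at 0.10 with -0.13 to 0.34.

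MRPS22, in which mutations cause cardiomyopathy and brain malformation, measured 21.6, 20.2 and 22.0 CPM with vehicle and 23.0, 22.7 and 23.6 CPM with Aβ42, separate groups with a log2 fold change of 0.12 (edgeR adjusted p = 0.35). MRPS30, a large-subunit protein, measured 22.5, 23.7 and 22.9 CPM with vehicle and 24.9, 25.8 and 24.9 CPM with Aβ42 (log2 fold change 0.13, edgeR adjusted p = 0.277). MRPS36, outside the ribosome, had a log2 fold change of -0.04 with an interval of -0.24 to 0.15. Of the 6 most and least abundant genes, only MRPS21 had an unadjusted edgeR p under 0.05. The log2 fold change was 0.13 for MRPL33, 0.06 for MRPL53, 0.03 for MRPS23, and 0.08 for both MRPS33 and MRPL22, with edgeR adjusted p from 0.508 to 0.779. The groups of MRPL33 did not overlap in CPM, by a narrow margin (lowest Aβ42 library 7.92 CPM, highest vehicle library 7.87 CPM), although they overlapped in TPM.

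Members were also grouped by place and origin in the ribosome, and the counts below read against backgrounds of 12.4% higher and 11.5% lower. The median log2 fold change was 0.042 over the 51 large-subunit members (4 higher and 2 lower at an unadjusted p under 0.05) and 0.067 over the 26 small-subunit members (2 higher and 2 lower). The 30 bacterial-type and 21 mitochondrion-specific proteins of the large subunit had medians of 0.025 and 0.049, each with 2 higher and 1 lower. The mitochondrion-specific classes were drawn to include MRPS18A in the large and MRPS18B in the small subunit, although both are counterparts of bacterial S18. In the small subunit the 16 bacterial-type proteins had a median of 0.019, with 2 higher and 2 lower, so that 4 of 16 (25%) met the threshold against 23.9% of all tested genes. With the length correction these 3 medians turned to -0.017, -0.005 and -0.045. Leaving out 1 library gave -0.016 (without Aβ42 library 2) to 0.052 for the bacterial-type and 0.019 to 0.094 for the mitochondrion-specific proteins of the large subunit, and -0.015 (without Aβ42 library 3) to 0.046 for the bacterial-type proteins of the small subunit.

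The 10 proteins classed as mitochondrion-specific in the small subunit, MRPS18B among them, had the highest median of these classes, 0.106. Of the 10, 9 stood above 0, MRPS35 being the exception. None of the 10 met an unadjusted p under 0.05. Their median was 0.077 with the length correction and 0.051 on the log2(TPM + 1) scale. Their summed level was 504, 503 and 495 TPM with vehicle and 505, 522 and 516 TPM with Aβ42. The groups were separate by little more than 1 TPM, and the class was singled out after its values were seen.

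Within the large subunit, the 5 stalk proteins had a median of 0.051, the 6 proteins around the tunnel exit 0.029 and the 7 of the central protuberance 0.049. With the length correction all 3 were below 0, at -0.057, -0.021 and -0.010. Without Aβ42 library 2 they were 0.007, -0.031 and 0.010, and without Aβ42 library 1 they were 0.108, 0.098 and 0.090. MRPL10 was the only one of these 18 with an unadjusted p under 0.05. Inside the stalk, MRPL10 at 0.27 and its partner MRPL12 at -0.17 had opposite signs, and the difference was not tested.

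The wider machinery of mitochondrial gene expression was read against the same backgrounds, 12.4% higher and 11.5% lower. Of 6 further ribosomal subunits with other names, including DAP3 and PTCD3, and of 14 translation factors, none had an unadjusted p under 0.05. Of 24 ribosome assembly factors 3 were higher and 1 lower, of 20 genes for aminoacylation of mitochondrial tRNAs none was higher and 1 lower, and of 19 genes for replication, transcription and processing of mitochondrial nucleic acids 2 were higher and 2 lower. Of 10 regulators of mitochondrial biogenesis 1 was higher, and of 18 import, chaperone and matrix genes 5 were higher and none lower. The shares at that threshold ran from 0% of the translation factors to 21.1% of the replication, transcription and processing genes and 27.8% of the import list, against 23.9% of all tested genes.

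NOA1, a GTPase needed to assemble the small subunit, measured 28.8, 27.4 and 28.4 CPM with vehicle and 36.0, 30.5 and 33.8 CPM with Aβ42 (log2 fold change 0.24 ± 0.08, SE; edgeR adjusted p = 0.108, and 0.0329 with the replicate block). HSPA9, the matrix chaperone that pulls imported proteins across the inner membrane, measured 317, 304 and 332 CPM with vehicle and 367, 357 and 374 CPM with Aβ42. Its groups were separate, with a log2 fold change of 0.21 ± 0.05 (SE; edgeR adjusted p = 0.0734, and 0.0095 with the block). POLRMT, the mitochondrial RNA polymerase, stood at 0.26 (edgeR adjusted p = 0.124, and 0.0227 with the block).

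CARS2, the mitochondrial cysteinyl-tRNA synthetase, measured 24.4, 25.2 and 24.8 CPM with vehicle and 18.7, 22.1 and 21.3 CPM with Aβ42 (log2 fold change -0.26 ± 0.08, SE; edgeR adjusted p = 0.109, and 0.0381 with the block). HSD17B10, a subunit of mitochondrial ribonuclease P that binds Aβ peptide, measured 20.3, 23.2 and 19.3 CPM with vehicle and 13.3, 19.6 and 15.2 CPM with Aβ42. Only Aβ42 library 2 reached into the vehicle range, and the log2 fold change was -0.38 ± 0.14 (SE; edgeR adjusted p = 0.135, and 0.0104 with the block). TRUB2, a pseudouridine synthase of mitochondrial RNA, had -0.21 (edgeR adjusted p = 0.175), and PPARGC1A, a coactivator of mitochondrial biogenesis, had 0.24 ± 0.08 (SE; edgeR adjusted p = 0.121).

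The cytosolic counterpart differed. Of 77 cytosolic ribosomal protein genes all 77 had a log2 fold change above 0, with a median of 0.264 (0.191 with the length correction), and 72 had an unadjusted p under 0.05, all higher (background 12.4%); with the replicate block 71 were called higher (background 7.12%). For mitochondrial members the corresponding values were 51 of 78, a median of 0.044 and 6 higher. The 79 tested genes of the nuclear-encoded respiratory chain and ATP synthase, whose partners the mitochondrial ribosome makes, had a median of 0.067 (-0.012 with the length correction), with 13 higher and 2 lower (19.0% in all, against 23.9% of tested genes). The difference between these families was not tested, since genes of 1 family are not independent.

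**Figure D5:**
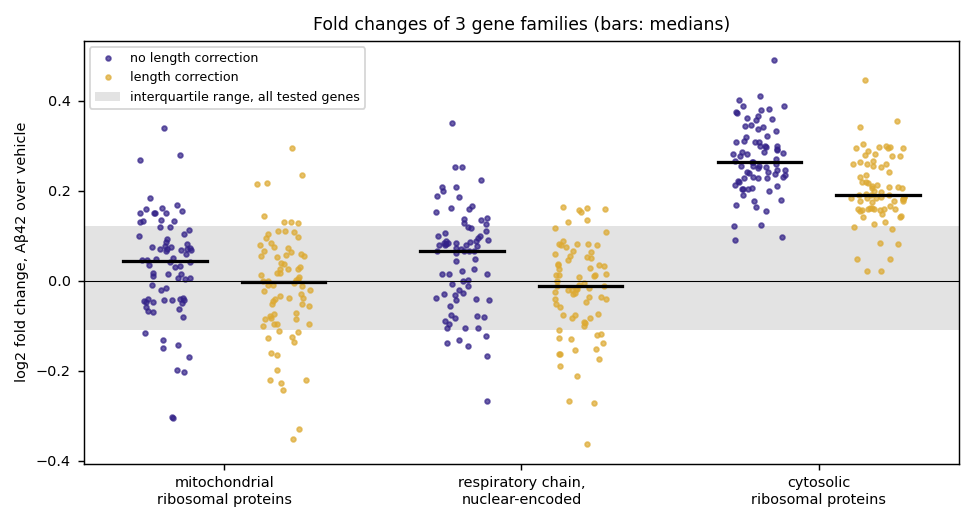
Log2 fold change (Aβ42 over vehicle) of each mitochondrial ribosomal protein gene, nuclear-encoded respiratory chain gene and cytosolic ribosomal protein gene, 1 point per gene, without and with a correction for transcript length; bars are medians and the grey band is the interquartile range of all tested genes. The cytosolic genes lie above 0 in both versions, while the other families lie around 0.

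Some cell type markers differed between the groups. Their counts read against backgrounds of 12.4% higher and 11.5% lower, or 7.05% lower with the replicate block. Of 13 proliferation markers 12 were lower at an unadjusted p under 0.05 and 12 were called lower with the replicate block, and their summed level fell from between 691.6 and 790.9 TPM with vehicle to between 447.6 and 637.6 TPM with Aβ42. Of 5 markers of intermediate progenitors 4 were lower, with sums of 247 to 270 TPM and 167 to 204 TPM. Of 8 neuronal markers 4 were lower, and of 8 radial glial markers 1 was higher and 3 were lower. All 11 hypoxia and glycolysis genes stood above 0, with a median of 0.536, and 2 of them had an unadjusted p under 0.05. That median was 0.289 without vehicle library 2, whose sum of 1614 TPM lay below the 2779 and 2354 TPM of the other vehicle libraries, and 0.805 without vehicle library 1. The part of these shifts in the members' values was not tested, and in bulk samples fewer cells of a type and less RNA per cell cannot be told apart.

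Promoters of these genes are known for sites of the nuclear respiratory factors and of YY1, which link ribosome and respiratory chain genes. RefSeq (GRCh38.p14) windows of 250 bases before to 50 after the start were at hand for 70 members and 11307 tested genes, and both strands were searched for 3 motifs. The ETS core bound by NRF2, CCGGAAG, was found for 30 members (42.9%) against 21.4% of tested genes. The YY1 core AAGATGG was found for 24 (34.3%) against 9.12%, and the NRF1 core TGCGCA for 15 (21.4%) against 15.6%. CCGGAAG and AAGATGG can overlap by the letters AAG. At least 1 of the 3 was found for 51 members (72.9%) and for 38.8% of tested genes.

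ETS and NRF1 matches lay mostly before the start (27 and 15 members, against 6 and 2 after it), and YY1 matches mostly after it (17 members, against 8 before). The median log2 fold change was 0.044 with the ETS motif and 0.045 without, 0.047 with the YY1 motif and 0.024 without, and -0.039 with the NRF1 motif and 0.047 without. These differences between carriers and non-carriers were not tested. A match is a description of the letters and not evidence of binding. The transcripts of the factors themselves, NRF1 and GABPA, had log2 fold changes of 0.13 and -0.01 (edgeR adjusted p = 0.315 and 0.962).

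The 250 bases before the start are shown for the 5 of the 12 members with the smallest p-values in either direction whose stretch holds a match. Among those 5, the ETS motif precedes genes of both signs. No window was at hand for MRPL10 or MRPL2, so these were not searched. Capitals mark the match on either strand. MRPS21 (chr1:150293611-150293860, plus strand, higher with Aβ42) has the ETS motif 11 bases before the start, MRPS10 (chr6:42217862-42218111, minus strand, lower) 22 bases before and MRPS18A (chr6:43687792-43688041, minus strand, lower) 31 bases before. MRPL57 (chr13:21176408-21176657, plus strand, lower) has the NRF1 core 75 bases before the start, and MRPS16 (chr10:73252645-73252894, minus strand, lower) has the YY1 core 222 bases before it.
MRPS21: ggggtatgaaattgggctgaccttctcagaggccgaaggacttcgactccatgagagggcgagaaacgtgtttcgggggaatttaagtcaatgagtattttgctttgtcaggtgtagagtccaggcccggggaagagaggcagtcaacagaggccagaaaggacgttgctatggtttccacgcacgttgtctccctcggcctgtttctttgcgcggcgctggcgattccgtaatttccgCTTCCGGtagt
MRPS10: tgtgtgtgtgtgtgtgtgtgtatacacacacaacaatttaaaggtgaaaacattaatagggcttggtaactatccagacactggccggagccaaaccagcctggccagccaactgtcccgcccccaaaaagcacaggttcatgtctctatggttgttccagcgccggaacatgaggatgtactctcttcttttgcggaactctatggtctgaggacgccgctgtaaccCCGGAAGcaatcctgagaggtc
MRPS18A: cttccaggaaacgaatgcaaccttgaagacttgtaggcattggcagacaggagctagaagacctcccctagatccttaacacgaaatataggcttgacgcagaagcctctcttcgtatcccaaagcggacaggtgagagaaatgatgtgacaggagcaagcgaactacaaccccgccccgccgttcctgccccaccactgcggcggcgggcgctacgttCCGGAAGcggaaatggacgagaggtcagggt
MRPL57: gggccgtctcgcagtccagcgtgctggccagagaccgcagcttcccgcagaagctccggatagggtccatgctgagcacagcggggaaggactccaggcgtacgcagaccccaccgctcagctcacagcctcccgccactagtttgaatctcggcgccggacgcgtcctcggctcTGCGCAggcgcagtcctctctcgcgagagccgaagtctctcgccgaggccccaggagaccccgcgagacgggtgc
MRPS16: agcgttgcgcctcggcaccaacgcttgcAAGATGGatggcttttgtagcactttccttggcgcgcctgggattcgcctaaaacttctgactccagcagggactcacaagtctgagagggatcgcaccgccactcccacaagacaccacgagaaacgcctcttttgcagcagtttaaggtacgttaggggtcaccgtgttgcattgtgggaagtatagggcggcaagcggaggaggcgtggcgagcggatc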

How the data were processed

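The authors deposited 1 table with estimated counts and TPM values, per the file headers; 86.9% to 87.5% of the count values in a library were whole, so they were treated as estimated counts and rounded for the tests. Deposited TPM values sum to 1000000 in each library within 1. FastQC, STAR 2.7.11b, featureCounts 2.0.6 and GRCh38 are listed in the submitters' processing notes, without roles; the program behind values that are not whole, the annotation and the use of strand in counting are not given in the sources used here.

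Counts were filtered with filterByExpr, scaled by TMM (factors 0.9963 to 1.006) and tested with edgeR 4.0.16 (quasi-likelihood, robust, two-sided, no block; R 4.3.3), with Benjamini-Hochberg adjustment over all tested genes and a threshold of 0.05. Standard errors and 95% intervals came from the same fit. CPM values are TMM-normalised. Alternatives used DESeq2 1.42.0, limma 3.58.1 on log2(TPM + 1) and log2(TPM + 0.1), limma-voom, other scalings and filters, a loess correction for length, the replicate block and leaving out libraries. The fit was also run on simulated counts with the same dispersion for every gene and no shared deviation of libraries. That run cannot show how the fit performs on these libraries. Summaries used Python 3.11.15 with pandas 2.3.3.

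Same-numbered libraries deviated from their group means together, with correlations of 0.181, 0.388 and 0.129 over the 12186 genes averaging 50 or more counts. All exceeded 0.1, so blocked values are given where they change a call. The pairing comes from these data and not from the labels, differently numbered pairs ranged from -0.302 to 0.177, and deviations cancel within a group, so numbers 1 and 3 are not separate evidence.

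Genes named were the 6 higher and 6 lower members of smallest p, the 3 of highest and 3 of lowest TPM, 11 members with known roles, those with the largest and smallest spread, and in each pathway list the higher and the lower gene of smallest p, if under 0.05. The members and lists were chosen with earlier results of these data known. All 78 members matched RefSeq; 42 have named pseudogenes and 28 overlap another gene's span, where counts are uncertain. No molecular identifiers are mentioned, so precision covers counting error and the spread between libraries.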

Additional observations from a re-analysis of the deposited data

How the results depend on the processing

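Of 78 members, 2 were called with the replicate block, where 1962 of all 13842 genes were called. With the block and the length correction 3 were called (1992 of 13842 genes), and without both libraries numbered 2 it was 4 (2316 of 13877 genes). When 1 library was left out, 0 to 8 members were called. The 8 arose without Aβ42 library 2 (3224 of 13960 genes), and every other omission gave 0 members and 0 of all tested genes. In each setting with calls named here, the share of members called was below that of all genes. Members higher at an unadjusted p under 0.05 numbered 2 with DESeq2, 3 on either TPM scale and 0 to 8 with 1 library left out, 0 being without Aβ42 library 3. Lower members numbered 1 with DESeq2, 9 on either TPM scale, 7 with the block and length correction and 1 to 5 with 1 library left out. Apart from log2(TPM + 1), the share over all genes at this unadjusted threshold was not computed for these settings, so no reading is drawn from them. The members' median log2 fold change was -0.0026 with the length correction, -0.0022 with block and length, -0.036 on log2(TPM + 0.1), -0.035 on log2(TPM + 1), and 0.015 to 0.061 with 1 library left out. For the large subunit these were -0.0099, -0.013, -0.041 and -0.041, and for the small subunit the TPM scales gave 0.015 each; with 1 library left out the large subunit ranged from 0.0069 (without Aβ42 library 2) to 0.063 and the small from 0.057 to 0.084. The summed TPM difference of -98.7 became 21.8 with the TPM outside the cytosolic ribosomal proteins rescaled to 1000000 and ranged from -166 to -19.6 with 1 library left out.

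The following genes changed sign under some setting. MRPL33 gave -0.00030 with the length correction. MRPL53 gave -0.057 with that correction or block and length, and -0.055 on either TPM scale. MRPS23 gave -0.0095 on log2(TPM + 0.1) and -0.0090 on log2(TPM + 1). MRPL44 gave -0.023 with length, -0.022 with block and length, -0.040 on log2(TPM + 0.1), -0.039 on log2(TPM + 1), -0.027 without both libraries numbered 2, and -0.035 (without vehicle library 2) to 0.039 with 1 library left out. MRPS36 gave 0.024 without both libraries numbered 2, MRPL55 -0.12 on log2(TPM + 1), and GABPA 0.008 with the length correction and 0.016 without Aβ42 library 2. The cause of these shifts was not tested. The block changed no other named call than those printed beside the results; HSPA9 was also called by DESeq2 and without the filter on low counts. With 3 libraries a group and a median SE of 0.083, the smaller fold changes lay within their error.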

Other observations

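The deposited counts and TPM values do not always move together. The ratio of count to TPM, taken relative to the median gene of the same library, reflects the transcript length used for scaling, and for most members it hardly differed between groups. For MRPL55, a bacterial-type large-subunit protein, its log2 value was -2.64, -2.66 and -2.81 in the vehicle libraries and -2.25, -2.68 and -2.54 in the Aβ42 libraries, a difference of 0.21. The gene's log2 fold change was 0.13 on counts and -0.12 on the log2(TPM + 1) scale. MRPL57 had -0.76, -0.77 and -0.77 with vehicle and -1.04, -0.76 and -0.91 with Aβ42. Its ratio was lowest in Aβ42 libraries 1 and 3, where its CPM was also lowest. The part of this in its fold change on counts was not tested. Both genes were picked after their values were seen. Over all 78 members, 58 had the same sign on counts and on the log2(TPM + 1) scale.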
